A study of Mus musculus with 8 samples.

Results

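Chromatin of ventricles from mice at postnatal day 7 (P7) was examined by H3K27Ac ChIP-Seq at 10 genes of the fibroblast growth factor (FGF) family, the ligands *Fgf1*, *Fgf2*, *Fgf7*, *Fgf9*, *Fgf10*, *Fgf12*, *Fgf16* and *Fgf20* and the receptors *Fgfr1* and *Fgfr2*. Each peak was given to the gene with the nearest curated transcription start, and 48 of the 45987 peaks went to these genes. Of the 10 genes, 8 had at least 1 peak, and *Fgf10* and *Fgf12* had none. The control group (Arid1a f/f Control) carried floxed *Arid1a* without Cre. The *Arid1a cKO* group (aMHC-Cre;Arid1a f/f cKO) carried the same floxed alleles together with αMHC-Cre, a transgene driven by the alpha myosin heavy chain promoter that recombines in cardiomyocytes. *Arid1a* encodes a component of SWI/SNF, a chromatin remodeler. The ventricles also hold fibroblasts, endothelial and other cells that the transgene does not target, so that a difference in the number of cells of a type and a difference in the mark per cell cannot be told apart. Each group had 2 H3K27Ac libraries and 2 input libraries, 8 in all, and the deposited table gives only the mean of each group.

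FGF ligands are secreted growth factors that bind receptor tyrosine kinases together with heparan sulfate chains on the cell surface, and the bound receptors signal through the adaptor FRS2 to the RAS-ERK cascade and through phospholipase C gamma. In the developing heart, ligands of the *Fgf9*, *Fgf16* and *Fgf20* subfamily are known to act on *Fgfr1* and *Fgfr2* in the myocardium and to support cardiomyocyte proliferation. *Fgf12* differs from the other ligands in that its protein stays inside the cell, where it modulates voltage-gated sodium channels. H3K27Ac, the acetylation of lysine 27 of histone H3, marks active promoters and enhancers.

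Reference sequences of peaks past the 2-fold limit are shown first, as examples of the letters counted further below. Apart from the *Fgf7* promoter, each stretch was placed around matches within its peak, so that a match in it was fixed by this choice, and some peaks with larger differences are not shown. Peaks are numbered along each gene, from the most upstream to the most downstream. Each line is a stretch of a peak, or of the *Fgf7* promoter, on the plus strand of GRCm38.p6 (mm10), read from the RefSeq assembly, and none of the stretches overlapped an annotated exon. Capitals mark matches to the letters bound by TEAD factors (CATTCC, or GGAATG on the other strand), to those bound by estrogen-related receptors (AAGGTCA, read as TGACCTT on the other strand), or to the MEF2 motif. The stretches of *Fgf7* peak 4 (chr2:126053827-126054126) and *Fgf7* peak 6 (chr2:126065251-126065550) each held 2 TEAD matches, and that of *Fgf20* peak 2 (chr8:40123316-40123615) held 1. The 250 bases before the *Fgf7* start (chr2:126034408-126034657) held no match to the letters of TEAD, the estrogen-related receptors or MEF2. They lie within *Fgf7* peak 1, which held 2 TEAD matches outside this stretch.
Fgf7 peak 4: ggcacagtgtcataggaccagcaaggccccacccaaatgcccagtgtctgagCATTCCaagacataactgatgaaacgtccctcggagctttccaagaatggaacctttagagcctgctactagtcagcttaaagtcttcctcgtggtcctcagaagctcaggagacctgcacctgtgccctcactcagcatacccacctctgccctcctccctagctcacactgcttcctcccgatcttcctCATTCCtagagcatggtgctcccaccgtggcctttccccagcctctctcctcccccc
Fgf7 peak 6: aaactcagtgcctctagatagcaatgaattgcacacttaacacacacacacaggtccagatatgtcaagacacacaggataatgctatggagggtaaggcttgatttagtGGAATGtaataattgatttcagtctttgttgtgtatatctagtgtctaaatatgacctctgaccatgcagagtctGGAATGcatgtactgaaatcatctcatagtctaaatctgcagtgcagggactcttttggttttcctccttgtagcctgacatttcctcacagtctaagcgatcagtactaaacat
Fgf20 peak 2: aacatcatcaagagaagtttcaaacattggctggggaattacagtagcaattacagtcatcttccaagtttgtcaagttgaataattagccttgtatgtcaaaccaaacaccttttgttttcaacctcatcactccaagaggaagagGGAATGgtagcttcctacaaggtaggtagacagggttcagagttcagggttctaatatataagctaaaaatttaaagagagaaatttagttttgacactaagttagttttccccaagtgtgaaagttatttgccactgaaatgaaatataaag
Fgf7 upstream: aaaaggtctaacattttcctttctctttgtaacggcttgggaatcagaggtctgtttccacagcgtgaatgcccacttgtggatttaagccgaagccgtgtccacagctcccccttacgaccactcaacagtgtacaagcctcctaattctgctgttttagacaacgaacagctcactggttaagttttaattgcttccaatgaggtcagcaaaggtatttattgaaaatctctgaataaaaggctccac

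The next stretches lie in peaks with less H3K27Ac in *Arid1a cKO* hearts. *Fgf9* peak 8 (chr14:58253401-58253700) had the lowest value in mutants of the 48 peaks, and its stretch held 1 TEAD match and no MEF2 match. *Fgf9* peak 6 (chr14:58149926-58150125), *Fgf9* peak 7 (chr14:58220054-58220253), *Fgf16* peak 1 (chrX:105671107-105671306) and *Fgf2* peak 4 (chr3:37383201-37383400) are the 4 lower peaks that held a MEF2 match, and the *Fgf16* stretch also held a match of the estrogen-related receptors. *Fgf9* peaks 6 and 7 each held such a match as well, outside the printed stretches.
Fgf9 peak 8: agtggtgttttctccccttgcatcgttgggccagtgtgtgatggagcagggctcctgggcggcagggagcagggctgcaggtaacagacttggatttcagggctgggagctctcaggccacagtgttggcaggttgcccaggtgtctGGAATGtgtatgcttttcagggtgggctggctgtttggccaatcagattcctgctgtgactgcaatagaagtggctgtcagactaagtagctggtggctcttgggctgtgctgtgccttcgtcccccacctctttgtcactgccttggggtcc
Fgf9 peak 6: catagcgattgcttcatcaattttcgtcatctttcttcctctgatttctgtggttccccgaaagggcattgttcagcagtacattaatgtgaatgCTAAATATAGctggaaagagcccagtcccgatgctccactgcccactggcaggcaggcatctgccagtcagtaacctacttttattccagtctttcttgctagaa
Fgf9 peak 7: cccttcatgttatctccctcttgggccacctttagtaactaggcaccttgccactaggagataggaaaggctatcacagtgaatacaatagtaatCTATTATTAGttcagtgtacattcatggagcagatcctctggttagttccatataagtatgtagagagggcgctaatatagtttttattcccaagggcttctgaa
Fgf16 peak 1: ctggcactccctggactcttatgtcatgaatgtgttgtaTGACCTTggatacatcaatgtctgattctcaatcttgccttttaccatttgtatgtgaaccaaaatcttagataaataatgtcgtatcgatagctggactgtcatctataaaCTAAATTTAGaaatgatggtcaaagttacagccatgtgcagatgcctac
Fgf2 peak 4: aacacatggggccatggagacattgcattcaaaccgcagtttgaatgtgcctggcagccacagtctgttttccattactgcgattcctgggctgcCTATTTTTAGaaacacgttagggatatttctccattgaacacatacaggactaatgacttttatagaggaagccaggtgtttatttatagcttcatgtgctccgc

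Values are the authors' group means in normalized reads per peak, and each difference is the log2 mean of *Arid1a cKO* minus the log2 mean of control. With no values of single libraries, no spread between replicates or confidence interval could be computed, library depths are unknown, and no p-value is given. A difference of 1, which is 2-fold, served as a descriptive limit and not as a test. The lowest mean in the table was 0.946 reads, which 279 peaks had in *Arid1a cKO* and 46 in control, and means at or under 3 reads were treated as a floor, so that a fold against them is a lower bound. The median difference over all peaks was 0.01, with quartiles of -0.33 and 0.30. *Arid1a* itself had 1607 reads in control and 1663 in *Arid1a cKO* at its promoter peak, a value that does not check the deletion, since the mark there is not a measure of the floxed exons.

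Of the 48 peaks at FGF genes, 11 (22.9%) were at least 2-fold higher in *Arid1a cKO* hearts, where 4.57% of all peaks were, and 9 (18.8%) were at least 2-fold lower, where 10.6% of all peaks were. The higher peaks belonged to *Fgf7* with 7, *Fgf20* with 3 and *Fgf2* with 1. The lower peaks belonged to *Fgf9* with 6 and to *Fgf1*, *Fgf2* and *Fgf16* with 1 each. Thus 3 of the 8 genes had a higher peak and 4 a lower one, where 10.7% and 19.7% of all genes with a peak did. These shares are not like for like. The 8 genes had 48 peaks, whereas 15761 genes shared 45980, and a gene with more peaks is more likely to have 1 past the limit. All of the higher and lower peaks lay at ligand genes, and none of the 8 peaks at *Fgfr1* and *Fgfr2* passed the limit in either direction. Peaks of one gene share a locus and are not independent of each other, and both shares rested on 1 gene: without *Fgf7*, 4 of 40 peaks (10%) were higher, and without *Fgf9*, 3 of 35 (8.57%) were lower. The share of lower peaks also came close to or below that of all peaks when far peaks were left out, with 4 of 37 (10.8%) within 100 kb of a start, where 10.03% of all peaks were lower, and 3 of 37 (8.11%) over or within 5 kb of the genes, where 10.6% were. The median over all 48 peaks was 0.255, and the summed reads were 3616 in control and 3994 in *Arid1a cKO*, a ratio of 1.10. Summed reads in control and *Arid1a cKO* were 226 and 839 at the higher peaks and 504 and 119 at the lower ones. The other 28 peaks held most of the reads, with 2886 and 3036.

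**Figure D1:**
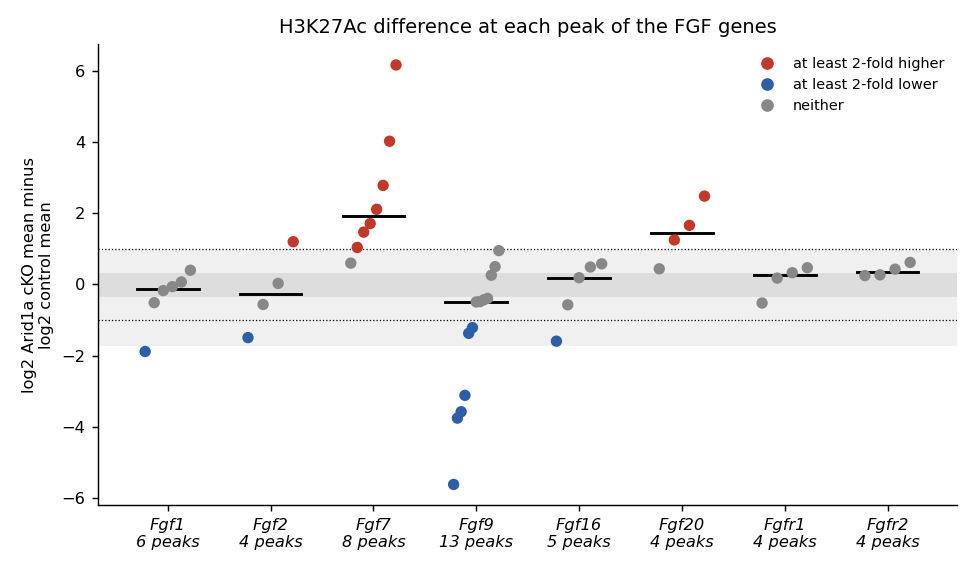
Each point is a peak, placed by its nearest gene on the horizontal axis and by the log2 *Arid1a cKO* mean minus the log2 control mean on the vertical axis. Black bars are the medians of each gene, the dark grey band spans the quartiles of all peaks of the table, the pale band runs from -1.70 to 0.95 (5th to 95th percentile), and dotted lines mark 2-fold. *Fgf7* and *Fgf20* lie above 0 throughout, 6 *Fgf9* peaks lie below -1, and the receptor peaks stay between -0.52 and 0.62.

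*Fgf7*, which encodes keratinocyte growth factor, a ligand of the epithelial splice form of *Fgfr2*, had more H3K27Ac in *Arid1a cKO* hearts at each of its 8 peaks. The summed reads were 163 in control and 544 in *Arid1a cKO*, a ratio of 3.34, and the differences ran from 0.60 to 6.16 with a median of 1.91. In control hearts the start of the gene was at the floor. Peak 1, which covers the transcription start, had 0.946 reads in control and 67.6 in *Arid1a cKO*, at least 22.5-fold higher. No other peak of the table had as large a difference in this direction. Peak 2, centred 4.46 kb downstream in intron 2 of the 4-exon gene, had 3.68 and 59.7 reads, 16.2-fold higher. The higher values were not confined to the start but ran on through intron 2, which holds peaks 2 to 8. Peak 4 had 6.41 reads in control and 44.0 in *Arid1a cKO*, 6.87-fold higher. Peak 6, the strongest of the locus over all libraries, had 47.8 and 156 reads, 3.27-fold higher. Peak 8, 51.9 kb from the start, had 13.6 and 58.9 reads, 4.32-fold higher. Smaller differences of 1.47 and 1.04 stood at peaks 3 and 5, with 7.21 and 19.97 reads at the former and 20.1 and 41.4 at the latter. The only *Fgf7* peak inside the limit was peak 7, with 63.1 reads in control and 95.7 in *Arid1a cKO*, a difference of 0.60.

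Per kb of peak, the 8 *Fgf7* peaks had 0.308 to 18.2 reads in control and 17.8 to 59.6 in *Arid1a cKO*, with the lowest control value at the floor. The largest fold differences, at peaks 1 and 2, lay where the control level was lowest, with 0.308 and 1.57 reads per kb against 22.04 and 25.4 in *Arid1a cKO*. *Fgf7* lies within *Fam227b*, a gene on the opposite strand, and ChIP-Seq does not assign a mark to a strand. The nearest *Fam227b* start was 65.5 kb or more from each of the 8 peak centres. The next peaks of the table on either side stood at *Cops2*, 177 kb away, with a difference of 0.05, and at *Dtwd1*, 66.2 kb away, with -0.01. The higher H3K27Ac was thus bounded by peaks that were nearly equal in both groups. Among genes with at least 4 peaks, 1.70% had 3 or more peaks 2-fold higher and 8.27% had every peak above 0. Only 3 other genes of 15761 had at least as many higher peaks as *Fgf7*, namely *Zfp385b* with 8 of 10, *Mir6387* with 7 of 28 and *Nfia* with 7 of 41. Genes with fewer than 7 peaks could not reach this count.

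*Fgf20*, a ligand of the *Fgf9* subfamily, also had higher values at each of its peaks, but these lay far from the gene. It had 4 peaks, all downstream in intergenic sequence at 154 to 281 kb, with 270.3 summed reads in control and 583 in *Arid1a cKO*, a ratio of 2.16. The strongest difference in reads stood at peak 2, with 99.7 in control and 315 in *Arid1a cKO*, 3.16-fold higher. Peak 1, next to it, had 4.53 and 25.3 reads, 5.58-fold higher. Peak 3, 267 kb away, had 16.9 and 40.2 reads, 2.38-fold higher. The outermost peak 4 was inside the limit with 149 and 202 reads, a difference of 0.44. Peak 2 was 5.63 kb wide, and its density of 17.7 reads per kb in control and 56.0 in *Arid1a cKO* was the highest of the higher *Fgf20* peaks in both groups. The *Fgf20* start itself carried no peak: the nearest one to it, 21.1 kb away at *Micu3*, had 138 and 162 reads. The table links these peaks to *Fgf20* by distance alone, and the next annotated start, that of *Mir7666*, was 175 to 302 kb from them. The next peak beyond, at *Msr1*, had a difference of -0.85.

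*Fgf9*, which in the embryonic heart is known as an endocardial and epicardial signal to the myocardium, had less H3K27Ac in *Arid1a cKO* hearts at distal sites, while its start differed less. The start peak had 443 reads in control and 338 in *Arid1a cKO*, a difference of -0.39, and made up much of the summed reads of 844 and 498. The peaks that passed the limit lay 77.4 to 449 kb downstream of the start, beyond the end of the gene. Together these 6 peaks had 275 reads in control and 48.7 in *Arid1a cKO*, a ratio of 5.64, with a median difference of -3.34. In *Arid1a cKO* hearts, 3 of the 6 were at or under the floor. Peak 8 had 46.2 reads in control and 0.946 in *Arid1a cKO*, at least 15.4-fold lower. Peak 13 had 38.3 and 2.85 reads, at least 12.8-fold lower. Peak 6 had 28.1 and 2.36 reads, at least 9.35-fold lower. The control level of these distal sites was not low, since per kb of peak they had 25.2 to 44.4 reads in control, against 61.4 at the start. Peak 10, the strongest of them in control, had 81.6 reads in control and 9.45 in *Arid1a cKO*, 8.63-fold lower. Peak 9 had 39.1 and 15.1 reads, 2.58-fold lower. Peak 7 had 41.6 and 18.0 reads, 2.31-fold lower.

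The other *Fgf9* peaks did not share this difference. The 4 peaks within 50 kb of the start ranged from -0.43 to 0.50. Among the 9 peaks beyond 50 kb, the remaining 3 had differences of -0.48, -0.49 and 0.95, at 73.0, 14.0 and 6.15 reads in control. Peaks 6 to 10 were thus consecutive lower peaks, followed by 2 peaks inside the limit and by the lower peak 13. *Fgf9* peaks beyond 50 kb were 2-fold lower in 6 of 9 cases (66.7%), against 14.2% of all peaks at such distances and 16.8% of those that also had 10 to 50 reads over all libraries, of which 7.18% were higher. Only 1.22% of genes with at least 4 peaks had 6 or more lower peaks. That limit was the count of *Fgf9* itself, which had 13 peaks, and genes with fewer than 6 peaks could not reach it. The share is thus not one of genes alike in number of peaks. In all, 45 other genes had at least as many lower peaks as *Fgf9*, led by *Hdac4* with 12 of 17, *2010106C02Rik* with 10 of 32, *D630024D03Rik* with 10 of 12, *Galnt2* with 10 of 15 and *Shroom3* with 10 of 26. The next annotated start, that of *3110083C13Rik*, was farther from each peak than the *Fgf9* start. The next peak of the table beyond the last *Fgf9* peak, 106 kb farther and nearest to *1700129C05Rik*, was also lower, with 38.1 reads in control and 0.946 in *Arid1a cKO*, so the stretch of lower peaks did not end with those assigned to *Fgf9*.

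**Figure D2:**
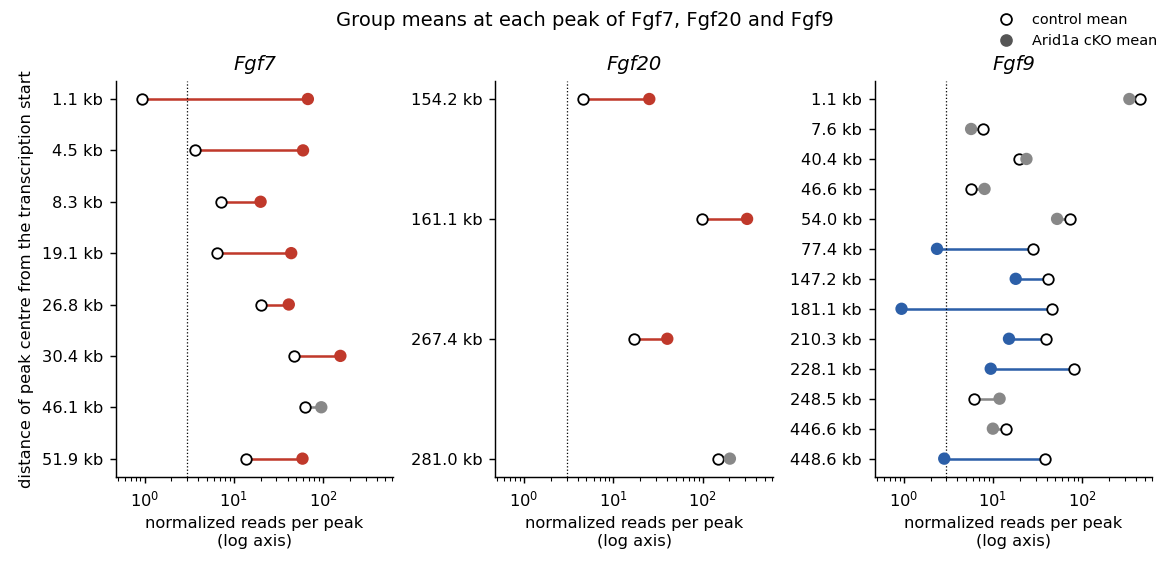
Group means at every peak of *Fgf7*, *Fgf20* and *Fgf9*, in normalized reads per peak on a log axis, with open circles for control and filled circles for *Arid1a cKO* (red, at least 2-fold higher, blue, at least 2-fold lower, grey, neither). Peaks are ordered by their distance downstream of the transcription start, not to scale, and the dotted line marks 3 reads, below which 1 control mean of *Fgf7* and 3 mutant means of *Fgf9* fall.

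*Fgf16*, the third ligand of this subfamily, which is expressed in postnatal cardiomyocytes, combined a start with somewhat more H3K27Ac and upstream sites with less. The start peak had 242 reads in control and 340.1 in *Arid1a cKO*, a difference of 0.49, and the intron peak beside it had 218 and 249 reads, a difference of 0.19. Peak 1, 92.9 kb upstream, had 45.6 and 15.1 reads, 3.01-fold lower, and peak 2, 80.3 kb upstream, had 47.8 and 32.2 reads, a difference of -0.57. A weak peak inside the neighbouring gene *Atrx* had 14.6 and 21.9 reads. Of the 5 peaks only peak 1 passed the limit, and it lies in intergenic sequence. For *Fgf9* and *Fgf16* alike, the sites past the limit were distal and lower, whereas the distal sites of *Fgf20* were higher.

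*Fgf1* and *Fgf2*, ligands that leave the cell without a classical secretion signal, had a lower peak inside the gene. At *Fgf1*, on chromosome 18, the peak over the transcription start had 124 reads in control and 33.6 in *Arid1a cKO*, 3.68-fold lower. Of the 6 peaks that cover the start of one of these genes, it was the only one at least 2-fold lower. The strongest *Fgf1* peak, 7.65 kb upstream, had 639 and 568 reads, a difference of -0.17. A peak in intron 1, 11.7 kb downstream of the start, had 103 and 135 reads, a difference of 0.40. The other 3 *Fgf1* peaks lay upstream with differences of -0.51 to 0.07, so the difference at the start was not seen at the peaks on either side of it. *Fgf1* overlaps the predicted gene *Gm5820* on the opposite strand, which the mark does not separate from it. Most of the 12 peaks that overlap *Fgf1* were nearer to another start and are not counted here. Over the gene or within 5 kb of it, the median difference was -0.17.

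The *Fgf2* promoter had nearly equal means, with 34.8 reads in control and 35.5 in *Arid1a cKO*. Its lower peak, peak 4, in intron 1 and 34.7 kb from the start, had 60.1 and 21.4 reads, 2.81-fold lower. In control it was the strongest of the peaks assigned to *Fgf2*. A neighbouring peak had 33.6 and 22.8 reads, a difference of -0.56. Peak 2, also in intron 1, was the only higher peak outside *Fgf7* and *Fgf20*, with 4.53 and 10.4 reads, 2.30-fold higher at a low level. The summed reads of *Fgf2* were 133 in control and 90.1 in *Arid1a cKO*. They leave out a peak within the gene that was nearer to the *Nudt6* start, with 68.1 reads in control and 89.9 in *Arid1a cKO*, a difference of 0.40. The promoter and the introns of *Fgf2* thus did not differ alike.

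*Fgf10*, the closest relative of *Fgf7* among these ligands, and *Fgf12* were nearest to no peak. For *Fgf10*, on chr13:118714699-118792573, the nearest peak was 328 kb from the start and belonged to *Mrps30*, with 69.1 reads in control and 79.9 in *Arid1a cKO*. Within *Fgf12*, on chr16:28157783-28753243, 1 peak lay 67.2 kb from the nearest of its 4 starts and closer to that of *Mir690*, with 51.3 and 30.9 reads, a difference of -0.73. The table thus holds no value for the start of either gene, and a peak had to be called by the authors to be listed.

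The receptors *Fgfr1* and *Fgfr2*, the tyrosine kinases through which the ligands signal, had differences of at most 0.62 in size. At *Fgfr1*, the start peak had 136 reads in control and 154 in *Arid1a cKO*, a difference of 0.18, and the strong peak in intron 2 had 128 and 161 reads, a difference of 0.33. The remaining *Fgfr1* peaks, both upstream, had -0.52 and 0.47. At *Fgfr2*, the peak nearest to the start had 26.4 and 35.5 reads, a difference of 0.43, and the strongest peak, 23.9 kb upstream, had 242 and 292 reads, a difference of 0.27. The remaining *Fgfr2* peaks had 0.25 and 0.62. Of the 8 receptor peaks 7 were above 0, and their median difference was 0.30, which is the upper quartile of all peaks of the table.

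Levels at the starts, taken from the peak over or nearest to each, can be compared between genes per kb of peak. In control hearts the order was *Fgf9* with 61.4 reads per kb, *Fgf16* with 41.5, *Fgfr1* with 39.0, *Fgf1* with 38.2, *Fgf2* with 25.8, *Fgfr2* with 15.3 and *Fgf7* with 0.308. In *Arid1a cKO* hearts it was *Fgf16* with 58.2, *Fgf9* with 46.9, *Fgfr1* with 44.2, *Fgf2* with 26.3, *Fgf7* with 22.04, *Fgfr2* with 20.6 and *Fgf1* with 10.4. *Fgf1* went from the middle of this order to its end, and *Fgf7* from the end to near *Fgf2* and *Fgfr2*. Without values of single libraries it cannot be said which neighbours in either order differ beyond their spread.

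The share of higher peaks was nearly the same at each distance, whereas that of lower peaks was not. Within 5 kb of a start, 2 of 9 peaks (22.2%) were higher and 1 (11.1%) was lower, where 2.23% and 4.11% of all such peaks were. From 5 to 50 kb, 5 of 22 (22.7%) were higher and 1 (4.55%) was lower, where 5.31% and 13.5% of all such peaks were. Beyond 50 kb, 4 of 17 (23.5%) were higher and 7 (41.2%) were lower, where 6.46% and 14.2% of all such peaks were. Within 50 kb, 6 of the 7 higher peaks were those of *Fgf7*, and beyond it 3 of the 4 higher peaks were those of *Fgf20* and 6 of the 7 lower peaks those of *Fgf9*. Of the FGF peaks, 22 of 48 (45.8%) were intergenic, against 30.4% of all peaks, and 7 of the 9 lower peaks were, 6 of them at *Fgf9*. Of the 11 higher peaks, 7 (6 of them at *Fgf7*) were intronic, as were 24 of the 48 FGF peaks (50%) and 50.8% of all peaks.

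**Figure D3:**
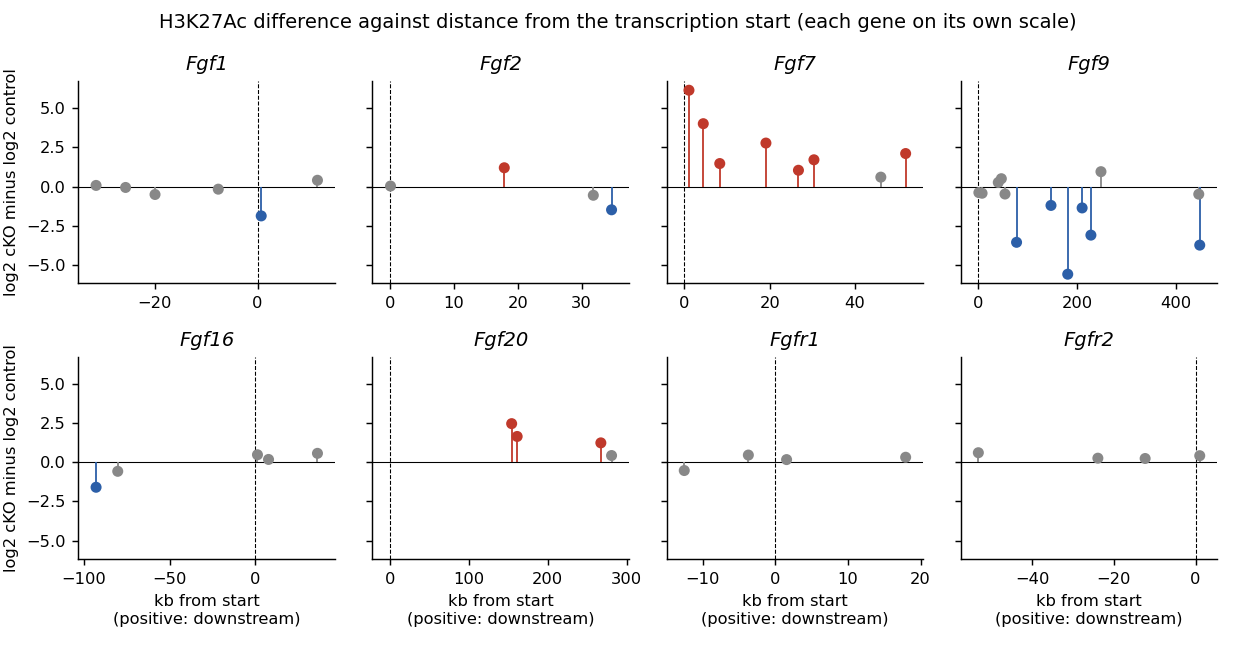
Log2 *Arid1a cKO* mean minus log2 control mean of each peak (vertical axis, same scale in all panels) against the distance of its centre from the transcription start in kb (horizontal axis, positive downstream, on a scale of its own for each gene). Red stems are at least 2-fold higher and blue stems at least 2-fold lower, the dashed line is the start, and the panels show the higher peaks of *Fgf7* along the gene, those of *Fgf20* at 154 to 267 kb and the lower peaks of *Fgf9* from 77.4 to 449 kb.

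The sequence of the peaks was searched on both strands for short motifs of factors active in the heart. The letters bound by TEAD factors (CATTCC) were found in 7 of 11 higher peaks, 5 of 9 lower peaks and 65.4% of all peaks, so their presence did not set the higher peaks apart. At *Fgf7*, 6 of 8 peaks held 17 TEAD matches, 0.941 per kb, against 0.612 per kb over all peaks. The stretches of *Fgf7* peaks 4 and 6 printed above hold 4 of them. The MEF2 motif was found in 4 of 9 lower peaks, in 0 of 11 higher peaks and in 2 of the other 28, where 7.56% of all peaks and 10.3% of all lower peaks held it. The 4 lower peaks with a match belong to *Fgf9*, *Fgf16* and *Fgf2*, that is to 3 genes. The letters bound by estrogen-related receptors (AAGGTCA) stood in 4 of 9 lower peaks and 1 of 11 higher peaks, against 36.6% of all peaks and 40.3% of all lower peaks, and in none of the *Fgf7* peaks. The other motifs were the E-box CACGTG in 16 of 48 peaks (33.3%, against 28.9% of all), the AP-1 letters TGANTCA in 20 (41.7% against 44.7%) and the GATA letters AGATAA in 31 (64.6% against 60.1%). At *Fgf7*, the GATA letters stood in 6 of 8 peaks with 16 matches, 0.886 per kb against 0.538 over all peaks. The E-box had 0.277 per kb there against 0.167, and the AP-1 letters 0.111 against 0.309. A density above that of all peaks at *Fgf7* was thus not particular to TEAD. In the central 300 bases, TEAD matches stood in 16.7% of FGF peaks and in 16.7% of all peaks, and MEF2 matches in 6.25% and 1.64%. Over the 250 bases before each of 32851 RefSeq starts, 12.6% held a TEAD match, 4.08% one of the estrogen-related receptors and 0.508% one of MEF2. Such matches are descriptions of sequence, and wider peaks hold more of them: the median width was 1936 bp for the higher and 1521 bp for the lower FGF peaks, and 1781 bp for all peaks.

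Other genes of the pathway differed in the direction opposite to *Fgf7* and *Fgf20* among the ligands. Of the 14 other FGF ligand genes, 5 had a peak, and all 14 of their peaks were below 0, with a median of -0.67 and 4 (28.6%) at least 2-fold lower. *Fgf18*, a ligand of bone and lung development, had 67.2 reads in control and 16.6 in *Arid1a cKO* at its lowest peak. *Fgf14*, an intracellular relative of *Fgf12*, had 59.7 and 15.1 reads. *Fgf5*, a regulator of the hair cycle, had 10.3 and 4.29 reads at its start. The 7 peaks of *Fgf13*, an intracellular relative of *Fgf12* as well, ranged from -0.70 to -0.39. *Fgf9* was thus not the only ligand gene with lower peaks. Of the other receptors and co-receptors, *Fgfr3*, *Fgfrl1* and *Kl* had 11 peaks with a median of 0.03, of which 1 was lower, at *Kl*, the co-receptor of endocrine FGFs, with 11.6 and 5.24 reads.

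Genes that carry or modify heparan sulfate, which FGFs need to bind their receptors, had 105 peaks with a median of 0.03, of which 6 (5.71%) were higher and 21 (20%) lower. *Sulf2*, an enzyme that removes sulfate groups from heparan sulfate, held 9 of the 21, the lowest with 46.2 reads in control and 0.946 in *Arid1a cKO*. The lowest peak of *Ext2*, a heparan sulfate polymerase, had 11.8 and 0.946 reads, that of the syndecan *Sdc1* had 21.0 and 4.29, and that of the glypican *Gpc6* had 19.2 and 5.24. *Ext1*, which forms the polymerase with *Ext2*, stood on both sides, with 2 higher and 3 lower peaks of 16, the highest with 0.946 and 8.51 reads and the lowest with 125 and 45.9. On the higher side, *Gpc3* had a peak with 1.44 and 11.9, *Sdc3* one with 10.9 and 32.7, and *Flrt3*, an FGF receptor interactor, one with 4.20 and 12.4. The *Flrt3* peak lay 917 kb from the start of the gene, the *Gpc6* peak 221 kb, and the named *Ext1* peaks 189 kb (highest) and 121 kb (lowest). These peaks are linked to the genes by distance alone. The adaptors and kinases had 60 peaks, none of which was higher and 12 (20%) of which were lower, with a median of -0.095. *Frs2*, the adaptor that docks on FGF receptors, held 5 of the 12, the lowest with 55.7 and 8.06 reads. The lowest peak of the phosphatase *Ptpn11* had 11.4 and 0.946 reads, that of the adaptor *Grb2* had 38.6 and 5.70, and that of the phospholipase *Plcg1* had 14.3 and 3.32.

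The feedback inhibitors and transcription factors that ERK signaling induces were the pathway list with more higher than lower peaks. Of their 102 peaks, 11 (10.8%) were higher, 3 (2.94%) lower and 78 above 0, with a median of 0.29 and summed reads of 13000.2 in control and 14703 in *Arid1a cKO*. *Etv1*, an ETS transcription factor, had a peak with 1.89 and 15.2 reads, at or under the floor in control. It lay 398 kb from the *Etv1* start. *Dusp4*, an ERK phosphatase, had a peak with 8.88 and 27.1 reads and another with 33.6 and 3.32, so it stood on both sides. The inhibitors *Spry4* and *Spry2* had peaks with 15.3 and 44.9 reads and with 6.63 and 17.03 reads. The lowest peak of the list was at *Dusp6*, another ERK phosphatase, with 14.7 and 0.946 reads, and *Dusp5* had one with 53.8 and 22.8. A strong *Spry2* peak 1.94 kb from the start, chosen after its values were seen, had 1370.0 and 1458 reads, a difference of 0.09.

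**Figure D4:**
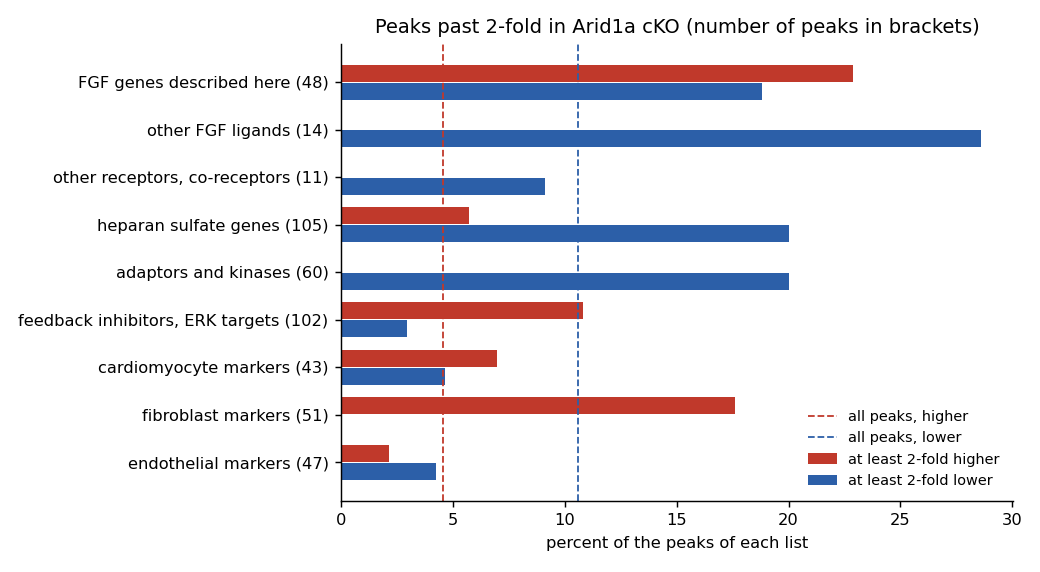
Share of peaks at least 2-fold higher (red bars) or lower (blue bars) in *Arid1a cKO*, in percent of the peaks of each list, with the number of peaks in brackets, for the 10 FGF genes, the other lists of the pathway and 3 lists of cell type markers. Dashed lines are the shares of all peaks, 4.57% higher and 10.6% lower. The 10 FGF genes exceed both lines, the adaptors and kinases have no red bar, and the fibroblast markers have no blue bar.

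Markers of the cell types in the ventricle were read beside these values. Cardiomyocyte markers had 43 peaks with a median of -0.13 and summed reads of 22266 in control and 20829 in *Arid1a cKO*. Of these peaks 3 (6.98%) were higher and 2 (4.65%) lower, against 4.57% and 10.6% of all peaks. The higher ones stood at *Nppa* (its only peak, with 49.5 and 234 reads, a difference of 2.24), *Gata4* (1 of 7, at 1.35) and *Ryr2* (1 of 18, at 1.25). The lower ones stood at *Actn2* (1 of 7, at -1.27) and *Ryr2* (1 of 18, at -1). Fibroblast markers had 51 peaks with a median of 0.44, of which 46 were above 0, 9 (17.6%) higher and none lower. Their summed reads were 3759.9 and 5107, a ratio of 1.36, on which strong peaks weigh most. At *Fgf7* and *Fgf20* the ratios were 3.34 and 2.16. The higher fibroblast peaks stood at *Col3a1* (4 of 12, up to 2.44), *Tcf21* (4 of 12, up to 1.78) and *Postn* (1 of 8, at 2.02), and none at the other fibroblast markers. Epicardial markers had 15 peaks with 2 (13.3%) higher and a ratio of 1.13. Smooth muscle and pericyte markers had 22 peaks with 2 (9.09%) higher and a ratio of 1.19. Endothelial markers had 47 peaks with 1 (2.13%) higher, 2 (4.26%) lower and a ratio of 1.02. Leukocyte markers had 4 peaks, none past the limit, and 3 of the 6 genes, *Adgre1*, *Lyz2* and *Cd52*, had no peak. All 4 were above 0, with 105 summed reads in control and 154 in *Arid1a cKO*, a ratio of 1.46, the highest of the marker lists. Defining fibroblast genes were marked in both groups, as at *Col1a1*, with 405 and 662 reads at its highest difference. The part of these cell types in the values of *Fgf7*, *Fgf20* and the ERK target genes was not tested.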

How the data were processed

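The data are 4 H3K27Ac and 4 input ChIP-Seq libraries of P7 ventricles, with groups taken from the genotype and antibody in the labels. According to the methods and the submitters' processing notes, the authors used BWA 0.7.17-r1188 for alignment to mm10 and HOMER for peak calling over the merged inputs. The methods give version 4.11 of HOMER for motif discovery and an earlier version for peak calling. The authors entered peaks seen in 2 or more samples into their differential analysis with DiffBind 2.12.0 and DESeq2 1.24.0. How libraries were scaled and inputs treated in the deposited means is not given in the sources used here. The deposited table gives each peak's log2 mean normalized read count over all libraries and in each group. It holds 0 columns of per-sample values, so depth is unknown and no test was possible. Columns of the authors' own comparison (log2 fold change, p-value and false discovery rate) are also deposited and were not used.

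Differences were taken between the group columns. Of the 45987 peaks, 45980 were placed on the GRCm38.p6 assembly by their centre, using the starts of 45756 curated RefSeq transcripts, and the other 7 count only in the shares of all peaks. A promoter was the stretch of 1000 bp before a start and 100 bp after it. The peaks named are, for each FGF gene, those past 2-fold, the one over or nearest to the start and the strongest. For each pathway list, up to 4 genes in each direction are named by size. The FGF genes, the lists and the markers were chosen with earlier results of these data known. Alternatives covered the fold limit, centring, low values, added reads and the assignment of peaks. Protein identity of the ligands was not analysed here. A run on simulated data recovered all planted differences. These were well past the limit and had little spread, so the run checks the code and not how reliable the 2-fold counts are. Python 3.11.15, numpy 2.4.6, pandas 2.3.3 and matplotlib 3.10.9 were used.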

Additional observations from a re-analysis of the deposited data

How the results depend on the processing

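Among 90 values recomputed under 10 alternatives, 82 stayed within their margin, which was 1.5 times for a count and 0.315 (0.5 times the interquartile range of all differences) for a median, and no called difference changed sign. Of 48 peaks, 7 (14.6%) were higher with a limit of 3-fold, against 1.35% of all peaks, and 7 with 10 reads added to each mean, against 0.774%. Lower peaks numbered 4 of 37 (10.8%, against 10.03%) within 100 kb of the start and 3 of 37 (8.11%, against 10.6%) over the gene or within 5 kb of it, since distal *Fgf9* peaks are then left out. They numbered 7 of 66 (10.6%, against 10.6%) when every start within 100 kb took the peak, and 9 of 48 (18.8%, against 17.3%) with a limit of 1.5-fold, so the share of lower peaks was not clearly above that of all peaks in these 4 settings. The median was -1.37 for *Fgf9* among peaks with a group mean of at least 20 reads, 1.53 for *Fgf7* and 1.09 for *Fgf20* with 10 reads added, and 0.23 for *Fgf20* under the assignment to every start, which replaces its own peaks by others. *Fgf20* had no peak within 100 kb and none over the gene, so it has no value there. With a limit of 1.5-fold, 14 of 48 peaks (29.2%) were higher, against 12.0%, and after centring 10 or 11 were. When every start within 100 kb took the peak, 8 of 66 (12.1%, against 4.57%) were higher. That count stayed within its margin, but the share was smaller than the 22.9% of the main setting. The small median of *Fgf2* went from -0.265 to 0.03 over the gene body. No paired analysis was possible because the table holds group means without replicate values, and for the same reason no replicate could be left out.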
